A study of Mus musculus with 15 samples.

Results

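The levels of 10 chemokine, interleukin 1 and NF-kB response genes were followed in mouse liver: the chemokines Ccl2, Ccl5, Cxcl1, Cxcl9 and Cxcl10, the cytokine gene Il1b and its antagonist Il1rn, and the NF-kB targets Tnfaip3, Nfkbia and Icam1. They were taken from the deposited table by gene symbol, 1 row each, and make up 10 of its 18510 rows. Each of the 10 was among the 10959 rows that entered the tests, which needed at least 1 FPKM (fragments per kilobase of transcript, scaled to the library's total) in at least 5 of the 15 libraries. Total RNA was sequenced from whole liver of 15 wild-type mice. There were 5 on a control diet (Ctrl), 5 fed an alcohol diet (Alc) and 5 fed the alcohol diet together with UA (Alc UA), an agent whose abbreviation the labels do not expand. The 3 groups share the wild-type genotype, and the age and sex of the mice and the length of feeding were not given in the sources used here. Mice are named by their replicate number in the labels (Ctrl 1 to Ctrl 5 and so on).

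NF-kB is held in the cytoplasm of resting cells by IkB proteins, and signals from Toll-like receptors, the TNF receptor and the interleukin 1 receptor free it to enter the nucleus. Its targets include chemokines that draw leukocytes into tissue, adhesion molecules that let them stop at the vessel wall, and inhibitors that switch the response off again. In the liver this pathway is active in Kupffer cells, sinusoidal endothelium and hepatocytes, and it is widely studied in alcohol-related injury. Since whole livers were sequenced, a lower value can reflect fewer cells of a type or less RNA per cell, and the 2 cannot be told apart.

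The sequences upstream of the start sites are shown so that the elements through which such genes are known to be induced can be seen. The genes were chosen in part as NF-kB targets, so a kappaB match in some of them is a description of the choice and not a result. RefSeq promoters (GRCm38.p6) were matched for 8 of the 10 genes, with 11 entries. In the 250 bases before the start, 4 genes (Cxcl1, Cxcl10, Tnfaip3 and Nfkbia) held a match to the kappaB consensus, the DNA element bound by NF-kB, on either strand. Of all 32851 promoter windows of the same length, 7.25% held one. Icam1 was the 1 gene with a gamma-activated site, TTCNNNGAA, which is bound by STAT factors and was found in 7.02% of all windows. The letters of a TATA box, TATAAA, were present in Cxcl9, Il1b and Tnfaip3 and in 12.4% of all windows. They lay 195 to 190 bases before the start in Cxcl9, 31 to 26 in Il1b and 225 to 220 in Tnfaip3. A match describes the letters and does not show that a factor was bound. The windows of the 5 genes with a kappaB or gamma-activated match are given 5′ to 3′ along the strand of the gene, with kappaB matches in capitals, or in Icam1 the gamma-activated site. The TATAAA match of Tnfaip3, 225 to 220 bases before its start, is left in lower case. The Cxcl1 window lies on the plus strand at chr5:90890995-90891244, and its 2 overlapping matches span 71 to 61 bases before the start. The Cxcl10 window lies on the minus strand at chr5:92348890-92349139, with matches at 159 to 150 and 2 overlapping ones at 104 to 94. The first Tnfaip3 entry lies on the minus strand at chr10:19015411-19015660, with kappaB matches at 125 to 116 and 12 to 3. The Nfkbia window, minus strand, is chr12:55492648-55492897, with a match at 29 to 20, and the Icam1 window, plus strand, is chr9:21015690-21015939, with its match at 42 to 34.
Cxcl1: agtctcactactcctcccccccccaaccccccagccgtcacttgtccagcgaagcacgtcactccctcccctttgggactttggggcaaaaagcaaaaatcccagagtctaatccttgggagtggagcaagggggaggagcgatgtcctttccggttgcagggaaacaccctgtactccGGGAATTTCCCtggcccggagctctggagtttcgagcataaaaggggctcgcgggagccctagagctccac
Cxcl10: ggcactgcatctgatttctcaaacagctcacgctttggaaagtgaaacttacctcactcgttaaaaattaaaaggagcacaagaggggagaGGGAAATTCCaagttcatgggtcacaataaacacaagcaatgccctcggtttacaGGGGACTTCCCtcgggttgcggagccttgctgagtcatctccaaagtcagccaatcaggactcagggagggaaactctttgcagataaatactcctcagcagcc
Tnfaip3: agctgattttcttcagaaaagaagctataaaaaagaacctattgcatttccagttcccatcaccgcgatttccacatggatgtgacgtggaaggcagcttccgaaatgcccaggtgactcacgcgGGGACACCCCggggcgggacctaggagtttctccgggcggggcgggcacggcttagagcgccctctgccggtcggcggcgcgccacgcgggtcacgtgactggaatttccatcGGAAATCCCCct
Nfkbia: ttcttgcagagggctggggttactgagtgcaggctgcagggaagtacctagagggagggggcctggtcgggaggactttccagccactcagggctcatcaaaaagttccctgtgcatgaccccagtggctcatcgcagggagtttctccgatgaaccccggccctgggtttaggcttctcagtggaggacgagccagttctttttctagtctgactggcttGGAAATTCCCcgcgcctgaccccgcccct
Icam1: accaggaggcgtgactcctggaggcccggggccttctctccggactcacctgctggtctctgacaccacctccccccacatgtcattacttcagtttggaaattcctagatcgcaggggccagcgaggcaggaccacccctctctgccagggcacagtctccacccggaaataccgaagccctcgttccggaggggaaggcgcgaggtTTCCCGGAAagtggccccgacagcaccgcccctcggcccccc

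FPKM values summed to between 551153 and 668832 per library, with 10119 to 11471 genes at or above 1 FPKM. How many reads lie behind them is unknown. Hepatocyte markers were high in every library, with a mean Alb level of 27562 FPKM in Ctrl, 36508 in Alc and 25235 in Alc UA. In a principal component analysis of all tested genes, the second component (14.0% of the variance) placed Ctrl 1 (-23.2) and Alc 4 (-25.1) apart from the other mice of their groups at one end and Ctrl 5 (24.3) at the other. These 3 mice recur in the values that follow, and each result is therefore also given without them where that changes it. Across all tested genes the median difference of log2(FPKM + 1) was -0.12 for Alc minus Ctrl and -0.16 for Alc UA minus Ctrl, so the differences of single genes are to be read against a small common shift. Of all tested genes, 1157 were higher and 2497 lower in Alc than in Ctrl, and 1152 were higher and 3521 lower in Alc UA than in Ctrl. With quantile normalization these became 2049 and 2024, and 2420 and 2430. With size factors they became 2206 and 1672, and 2738 and 2022. A gene was taken to pass where its adjusted p was under 0.05 in a limma model of log2(FPKM + 1) over the 3 groups.

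The alcohol diet was accompanied by lower Ccl5, Cxcl10 and Nfkbia and by higher Il1rn. These 4 of the 10 genes passed the test, 1 higher and 3 lower, where 33.3% of all tested genes passed (10.6% higher and 22.8% lower). A share of 4 in 10 is close to that of all genes. The call of Ccl5 held whichever mouse was left out, while each of the other 3 was lost without 1 or another mouse. The median difference of the 10 genes was -0.31, beside -0.12 for all genes. With UA added to the alcohol diet, 0 of the 10 genes passed the test against the alcohol diet alone, where 0.00912% of all tested genes passed, and the intervals of the differences were wide. Against the control diet, the mice given alcohol and UA had lower Ccl5 and Cxcl10 and higher Il1rn, 3 of 10 genes where 42.6% of all tested genes passed (10.5% higher and 32.1% lower).

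**Figure D1:**
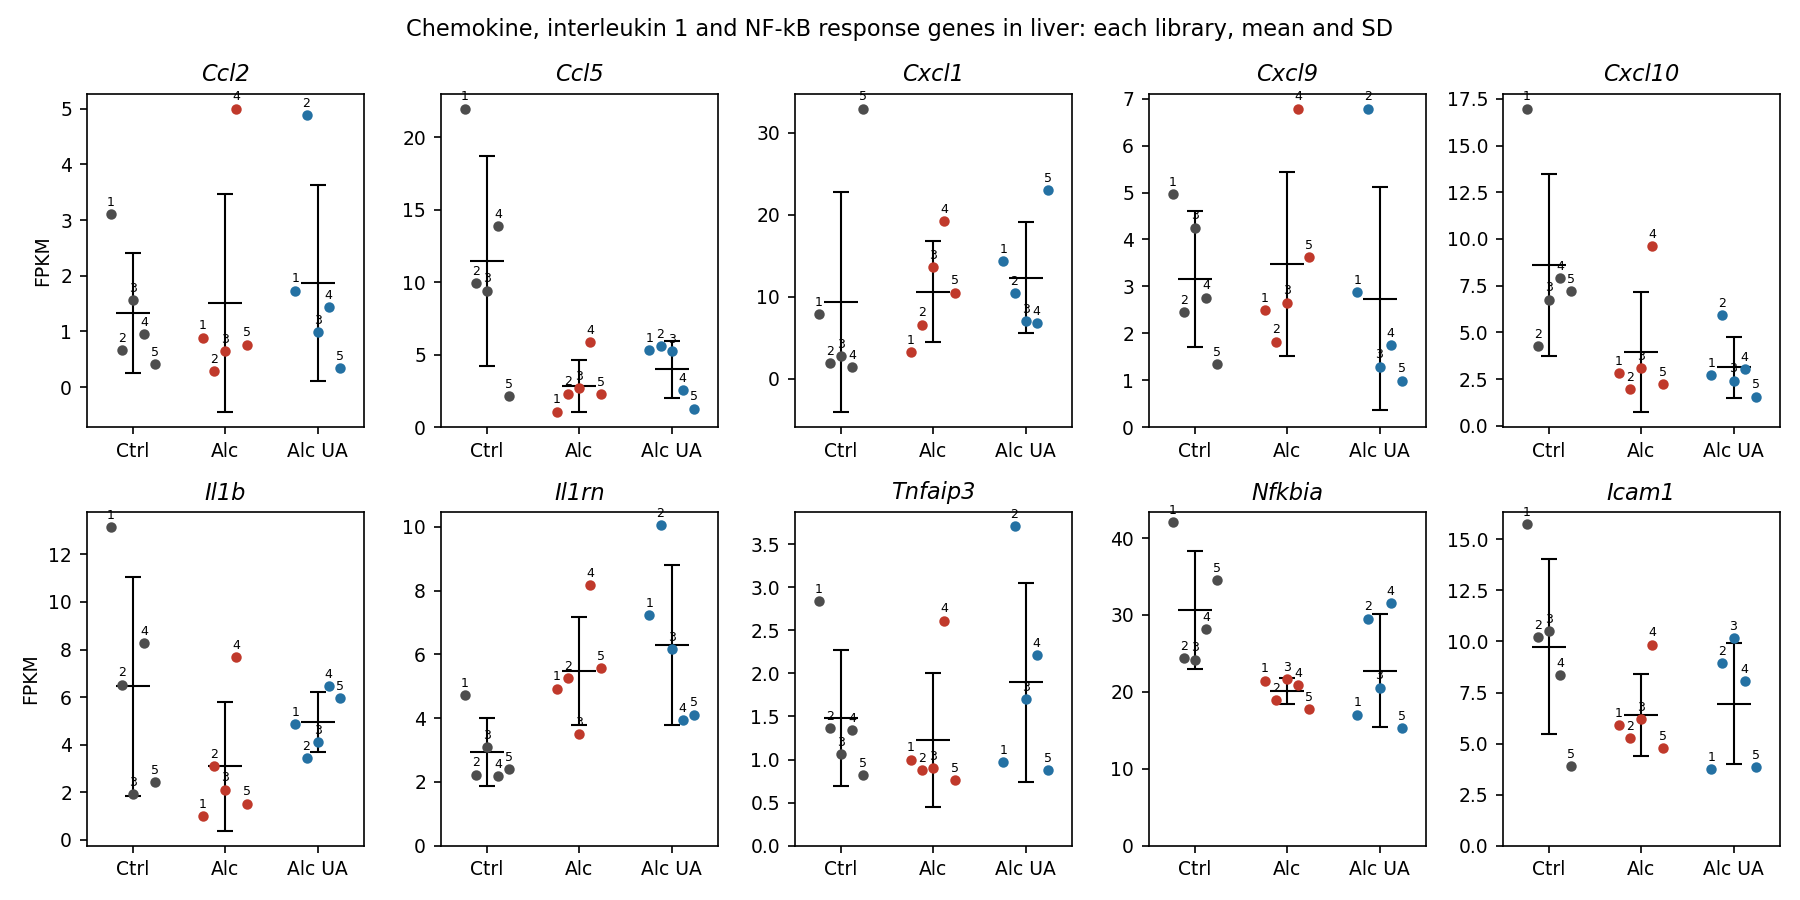
FPKM (y axis, linear) of each of the 10 genes by group (x axis), with 1 point per mouse and the mean and SD of 5 mice. The panels show Ccl5 reaching 21.99 FPKM in a Ctrl mouse while every Alc mouse was at or below 5.85, and Il1rn at a mean of 2.93 in Ctrl beside 5.48 in Alc and 6.30 in Alc UA.

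Ccl5 encodes a chemokine that attracts T cells and monocytes and is itself made largely by T and NK cells. Its level was 21.99, 9.96, 9.43, 13.89 and 2.15 FPKM in Ctrl 1 to 5, and 1.08, 2.31, 2.68, 5.85 and 2.27 in Alc 1 to 5. In Alc UA 1 to 5 it was 5.33, 5.58, 5.25, 2.56 and 1.28 FPKM. Ctrl mice 1 to 4 lay above every mouse on alcohol, with or without UA, and Ctrl 5 lay among them, so the groups overlapped through this 1 mouse. The mean fell from 11.5 ± 7.24 FPKM (SD, n = 5) in Ctrl to 2.84 ± 1.79 (n = 5) in Alc, a 4.05-fold lower level. On the log2(FPKM + 1) scale, which understates the change of low genes, the difference was -1.55 ± 0.45 (SE), with a limma adjusted p of 0.017. The call held in each fit that left out 1 mouse. In Alc UA the mean was 4.0 ± 1.96 FPKM, and the difference from Ctrl was -1.17 ± 0.45 (limma adjusted p = 0.047). That second call ended in 17 of the other settings, among them quantile normalization and size factors. It ended on leaving out Ctrl 1 (difference -0.89, limma adjusted p = 0.12) or Alc UA 5 (-0.92, adjusted p = 0.13). It also ended without Ctrl 2 (limma adjusted p = 0.079), mouse 3 of Ctrl (0.075) or mouse 4 of Ctrl (0.10), without mouse 1 (0.053) or mouse 4 (0.092) of Alc UA, and without mouse 2 (0.057), 3 (0.055) or 5 (0.056) of Alc.

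Markers of T and NK cells moved with Ccl5. Their summed level over 14 of 15 listed genes ran from 5.23 to 34.3 FPKM in Ctrl (median 15.9), from 3.47 to 7.99 in Alc (median 4.98) and from 3.42 to 8.17 in Alc UA (median 6.73). Ctrl 1 was highest and Ctrl 5 lowest for both the marker sum and Ccl5. All 14 markers were detected in each group, and most were too low for the test. The sum of the 9 B and plasma cell markers ran from 8.65 to 26.5 FPKM in Ctrl and from 2.90 to 8.66 in Alc, and the sum of the 7 erythroid markers from 1432 to 8801 in Ctrl and from 576 to 988 in Alc. The part of these cells in the Ccl5 difference was not tested.

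Cxcl10, a chemokine induced by interferons and by NF-kB that attracts activated T cells through CXCR3, was also lower on alcohol. Ctrl 1 to 5 had 16.98, 4.25, 6.75, 7.92 and 7.21 FPKM, and Alc 1 to 5 had 2.82, 1.97, 3.07, 9.63 and 2.23. The values in Alc UA 1 to 5 were 2.69, 5.91, 2.41, 3.03 and 1.56. Apart from Alc 4, every Alc mouse was below every Ctrl mouse, and in Alc UA only the second mouse rose into the Ctrl range. Means were 8.62 ± 4.87 FPKM in Ctrl, 3.94 ± 3.21 in Alc and 3.12 ± 1.65 in Alc UA (SD, n = 5 each). Alc differed from Ctrl by -1.02 ± 0.36 on the log2 scale (limma adjusted p = 0.040), 2.19-fold in the means. The call was lost on leaving out mouse 1 (-0.76, adjusted p = 0.11), 3 (0.054) or 4 (0.071) of Ctrl, or mouse 1 (0.080), 2 (0.098), 3 (0.066) or 5 (0.097) of Alc. Alc UA differed from Ctrl by -1.18 ± 0.36 (limma adjusted p = 0.016), 2.76-fold in the means, and this call held whichever mouse was left out. It was lost without Ctrl 1 and Ctrl 5 together (-0.87, adjusted p = 0.076).

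Cxcl9, the other CXCR3 ligand measured and a gene induced by interferon gamma, gave no such difference. Its values were 4.96, 2.45, 4.25, 2.76 and 1.34 FPKM in Ctrl, 2.49, 1.82, 2.65, 6.79 and 3.62 in Alc, and 2.88, 6.79, 1.29, 1.75 and 0.99 in Alc UA. The ranges lay over one another, and the highest value of all, 6.79, was reached by both Alc 4 and Alc UA 2. Alc minus Ctrl was 0.09 ± 0.36 (limma adjusted p = 0.86) and Alc UA minus Ctrl was -0.27 ± 0.36 (adjusted p = 0.57). The sign of the first turned with the mouse left out, from -0.13 to 0.24.

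Ccl2, which draws monocytes out of the blood through CCR2, was among the least expressed of the 10 genes. Ctrl 1 to 5 had 3.10, 0.66, 1.56, 0.95 and 0.41 FPKM, Alc 1 to 5 had 0.89, 0.28, 0.64, 5.00 and 0.76, and Alc UA 1 to 5 had 1.73, 4.88, 0.98, 1.43 and 0.34. A single mouse stood far above the rest in Alc and in Alc UA. Because of Alc 4, the mean in FPKM was higher in Alc (1.51 ± 1.96) than in Ctrl (1.34 ± 1.08), while the difference on the log2 scale was -0.04 ± 0.42 (limma adjusted p = 0.95). Alc UA had a mean of 1.87 ± 1.76 FPKM and differed from Ctrl by 0.22 ± 0.42 (limma adjusted p = 0.70).

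Cxcl1, a neutrophil attractant that hepatocytes as well as macrophages release, was the 1 chemokine of the 5 with a positive difference of more than 0.5 on alcohol. Ctrl 1 to 5 had 7.84, 1.91, 2.74, 1.39 and 32.97 FPKM, against 3.27, 6.58, 13.61, 19.24 and 10.49 in Alc and 14.38, 10.48, 7.06, 6.76 and 23.05 in Alc UA. The highest value of all 15 libraries was in Ctrl 5, while Ctrl 2, 3 and 4 were below every mouse on alcohol. With Ctrl 5 included, Alc minus Ctrl was 0.76 ± 0.62 (limma adjusted p = 0.35) and Alc UA minus Ctrl was 1.02 ± 0.62 (adjusted p = 0.19). Without Ctrl 5 the differences were 1.39 (limma adjusted p = 0.026) and 1.64 (adjusted p = 0.0092). Cxcl1 is not counted among the genes that passed. The summed level of the 10 neutrophil markers was 6.48 to 50.4 FPKM in Ctrl (highest in Ctrl 1), 6.79 to 12.6 in Alc and 8.33 to 22.0 in Alc UA.

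Of the interleukin 1 genes, Il1rn rose and Il1b did not pass the test. Il1b encodes the cytokine itself, and Il1rn the antagonist that occupies the same receptor without signalling. Il1rn was at 4.72, 2.23, 3.10, 2.18 and 2.41 FPKM in Ctrl 1 to 5, at 4.93, 5.25, 3.50, 8.17 and 5.56 in Alc 1 to 5, and at 7.24, 10.06, 6.16, 3.94 and 4.11 in Alc UA 1 to 5. Ctrl 2 to 5 were below every mouse on alcohol, and Ctrl 1 lay within the range of both other groups. Means were 2.93 ± 1.07 FPKM in Ctrl, 5.48 ± 1.70 in Alc and 6.30 ± 2.52 in Alc UA. Il1rn rose by 0.72 ± 0.23 in Alc (limma adjusted p = 0.027), 1.87-fold in the means, and by 0.87 ± 0.23 in Alc UA (adjusted p = 0.0082), 2.15-fold, against Ctrl. The first call was lost without Ctrl 2 (adjusted p = 0.063), Ctrl 4 (0.065), Alc 4 (difference 0.59, adjusted p = 0.064) or Alc 5 (0.056), and the second held in every setting run.

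Il1b was at 13.14, 6.53, 1.93, 8.28 and 2.44 FPKM in Ctrl, at 1.0, 3.10, 2.11, 7.69 and 1.53 in Alc, and at 4.86, 3.43, 4.12, 6.46 and 5.95 in Alc UA. Ctrl and Alc overlapped widely, and the 5 Alc UA mice lay close together, each above the Alc mean. Alc minus Ctrl was -0.83 ± 0.42 (limma adjusted p = 0.14), and without Alc 4, the highest Alc mouse, it was -1.15 (adjusted p = 0.033). Alc UA minus Ctrl was -0.11 ± 0.42 (limma adjusted p = 0.86).

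The ratio of Il1rn to Il1b sets the antagonist against the cytokine within each mouse. It was 0.359, 0.342, 1.61, 0.263 and 0.988 in Ctrl 1 to 5, 4.93, 1.69, 1.66, 1.06 and 3.63 in Alc 1 to 5, and 1.49, 2.93, 1.5, 0.610 and 0.691 in Alc UA 1 to 5. Il1rn exceeded Il1b in 1 of 5 Ctrl mice, 5 of 5 Alc mice and 3 of 5 Alc UA mice. The log2 of the ratio, with 1 FPKM added to each gene, averaged -0.72 ± 0.90 in Ctrl, 0.83 ± 0.62 in Alc and 0.25 ± 0.78 in Alc UA (SD, n = 5). Alc exceeded Ctrl by 1.55 (exact permutation test, two-sided, p = 0.016, 0.048 adjusted over the 3 comparisons; the smallest p of this test is 0.0079). Leaving out any mouse but Ctrl 3 or Alc 4 gave p = 0.032 (0.095 adjusted) by the same exact test, with differences from 1.35 to 1.73. Alc UA differed from Alc by -0.58 (exact p = 0.23) and from Ctrl by 0.97 (exact p = 0.10, 0.15 adjusted).

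**Figure D2:**
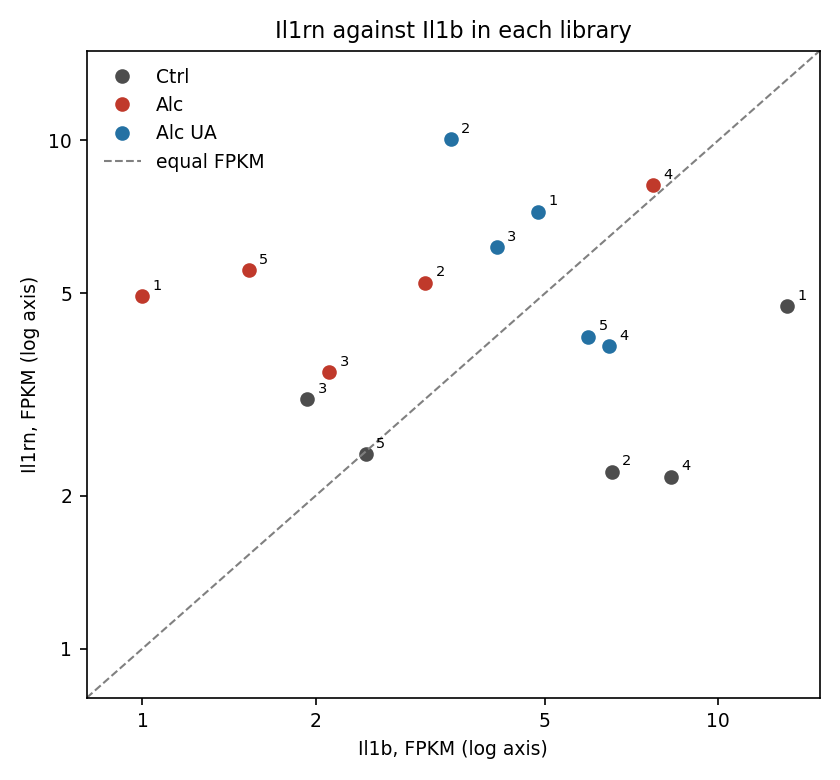
Il1rn (y axis) against Il1b (x axis) in FPKM, both on log axes, with 1 point per mouse coloured by group and a dashed line where the 2 genes are equal. The 5 Alc mice lie above the line, with ratios from 1.06 to 4.93, and 4 of the 5 Ctrl mice lie below it.

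Among the NF-kB feedback genes, Nfkbia was the most abundant of the 10 genes per length. It encodes IkB-alpha, the inhibitor that NF-kB induces and that returns it to the cytoplasm. Ctrl 1 to 5 had 42.05, 24.37, 24.17, 28.16 and 34.50 FPKM, and Alc 1 to 5 had 21.47, 18.92, 21.67, 20.87 and 17.71. Every Ctrl mouse was above every Alc mouse. This was the 1 gene of the 10 whose groups did not overlap in this comparison, where 15.8% of all tested genes did not overlap. The mean was 30.65 ± 7.62 FPKM in Ctrl and 20.1 ± 1.73 in Alc (1.52-fold lower), a difference of -0.56 ± 0.19 (limma adjusted p = 0.035). The call ended on leaving out mouse 1 (-0.44, adjusted p = 0.091), 4 (0.054) or 5 (0.058) of Ctrl, or mouse 1 (0.052), 2 (0.069) or 5 (0.082) of Alc, and with size factors (-0.39, adjusted p = 0.089). Alc UA 1 to 5 had 17.04, 29.50, 20.56, 31.52 and 15.26 FPKM. With UA the mice spread out, from below the Alc range to within the Ctrl range, at a mean of 22.8 ± 7.35. Alc UA minus Ctrl was -0.44 ± 0.19 (limma adjusted p = 0.075). It became -0.54 (adjusted p = 0.038) without Alc UA 2 and -0.56 (adjusted p = 0.025) without Alc UA 4.

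Tnfaip3, a ubiquitin-editing enzyme that shuts off signalling upstream of NF-kB, was low throughout, at 2.84, 1.36, 1.06, 1.34 and 0.82 FPKM in Ctrl, 1.0, 0.88, 0.90, 2.61 and 0.76 in Alc, and 0.97, 3.71, 1.70, 2.21 and 0.88 in Alc UA. The 3 groups overlapped. Alc minus Ctrl was -0.16 ± 0.26 (limma adjusted p = 0.66), and Alc UA minus Ctrl was 0.19 ± 0.26 (adjusted p = 0.60).

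Icam1, the endothelial and epithelial ligand for leukocyte beta-2 integrins, was at 15.74, 10.22, 10.51, 8.34 and 3.88 FPKM in Ctrl, 5.90, 5.26, 6.20, 9.85 and 4.77 in Alc, and 3.76, 8.95, 10.16, 8.06 and 3.83 in Alc UA. Ctrl 1 was the highest and Ctrl 5 sat below every Alc mouse. Alc minus Ctrl was -0.47 ± 0.31 (limma adjusted p = 0.25) and Alc UA minus Ctrl was -0.42 ± 0.31 (adjusted p = 0.29). Without Ctrl 5 these were -0.73 (limma adjusted p = 0.042) and -0.68 (adjusted p = 0.049). Sinusoidal endothelial markers, whose cells carry Icam1, were lower in Alc for 12 of 13 genes, beside 22.8% of all tested genes. Their sums ran from 177 to 508 FPKM in Ctrl, 78.8 to 174 in Alc and 81.8 to 109 in Alc UA. Their part in the Icam1 values was not tested.

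The addition of UA to the alcohol diet was asked of each gene directly. Of the 10 genes, 0 passed the test (0 also at an unadjusted p under 0.05). The 1 gene that passed among all those tested was Mup5, of the major urinary proteins. Differences were positive for 8 genes and negative for 2, with a median of 0.20 beside -0.05 for all genes, and limma adjusted p values lay between 0.82 and 0.99. The largest was that of Il1b, 0.72 ± 0.42, with a 95% interval from -0.17 to 1.61 and 5 of 5 Alc UA mice above the Alc mean. For the other chemokines and targets the intervals were wide. They ran from -0.58 to 1.34 for Ccl5, from -0.93 to 0.60 for Cxcl10, from -1.05 to 1.56 for Cxcl1, from -0.64 to 1.16 for Ccl2 and from -1.11 to 0.40 for Cxcl9. For Il1rn the interval was -0.35 to 0.64, for Nfkbia -0.28 to 0.52, for Icam1 -0.60 to 0.70 and for Tnfaip3 -0.21 to 0.91. Each interval includes 0 and also shifts of more than 0.5 on the log2 scale in at least 1 direction. No gene of the 10 had Alc UA and Alc groups that did not overlap (1.18% of all tested genes), nor Alc UA and Ctrl groups (20.2%). The comparisons with Ctrl share the same 5 control mice, so the values of Alc and of Alc UA against Ctrl are not independent.

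**Figure D3:**
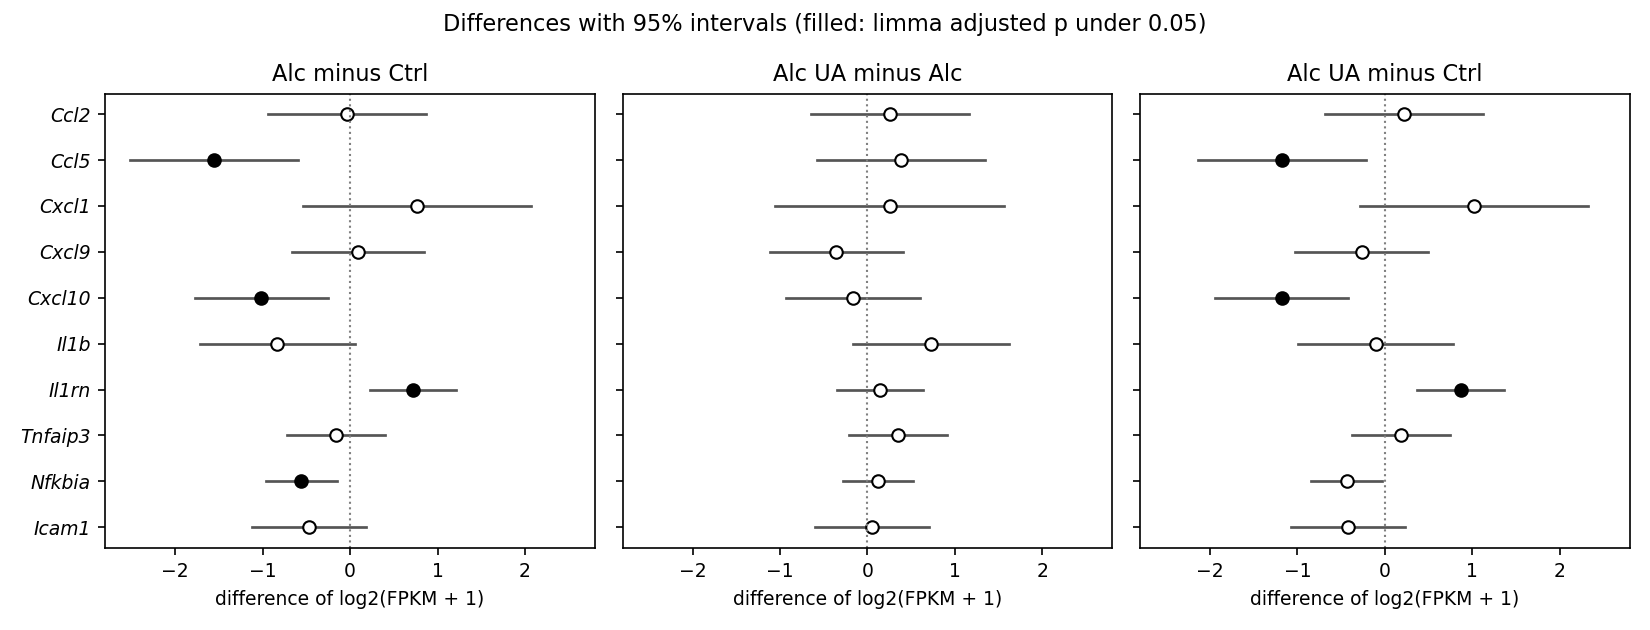
Difference of log2(FPKM + 1) with its 95% interval (x axis) for each gene (y axis) in the 3 comparisons, filled where the limma adjusted p is under 0.05. Ccl5, Cxcl10, Il1rn and Nfkbia are filled for Alc minus Ctrl, none for Alc UA minus Alc, and Ccl5, Cxcl10 and Il1rn for Alc UA minus Ctrl.

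Mice differed within groups in a way that many of the genes shared. Ctrl 1 was the highest mouse of its group for 9 of the 10 genes, beside 45.7% of all tested genes, and Alc 4 for 9 of 10, beside 44.1%. Alc UA 2 was the highest of its group for 6 of 10 (29.1% of all tested genes). Ctrl 1 and Alc 4 were above their group mean for 10 of 10 genes, with median deviations of 0.71 and 0.92 on the log2 scale. Ctrl 5 had the lowest value of its group for 5 of the 10 genes and Alc UA 5 for 6 of 10. These 2 mice also had the fewest genes at or above 1 FPKM in their groups (10305 and 10119). For lowest values, and for values above the group mean, the share of all tested genes was not counted. Those counts are therefore not shown to be particular to the 10 genes. In their groups, Ctrl 1 and Alc 4 each had the highest T and NK, B and plasma, neutrophil, monocyte and dendritic, and Kupffer sums. Other lists were mixed. Alc 4 led the stellate, cholangiocyte and erythroid sums of Alc, and Ctrl 1 the endothelial sum of Ctrl. Ctrl 3 led the stellate and cholangiocyte sums of Ctrl, Ctrl 4 its erythroid sum, and Alc 2 the endothelial sum of Alc. Alc UA 2 led the T and NK, monocyte and dendritic, stellate and cholangiocyte sums of its group. It had the lowest Kupffer (210 FPKM) and neutrophil (8.33 FPKM) sums there. Hepatocyte marker sums were the lowest of their group in Ctrl 1 (34134 FPKM), Alc 4 (43646) and Alc UA 2 (28097). The part of cell composition in these shared deviations was not tested. Without Ctrl 1 and Ctrl 5, 3 of the 10 genes passed in Alc against Ctrl, 0 in Alc UA against Alc and 3 in Alc UA against Ctrl. Without Ctrl 1 and Alc 4 the counts were 3, 0 and 2. Over all tested genes, the first setting gave 1114 higher and 2571 lower in Alc against Ctrl, and 1068 and 3507 in Alc UA against Ctrl. The second gave 965 and 1903, and 1170 and 2867.

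**Figure D4:**
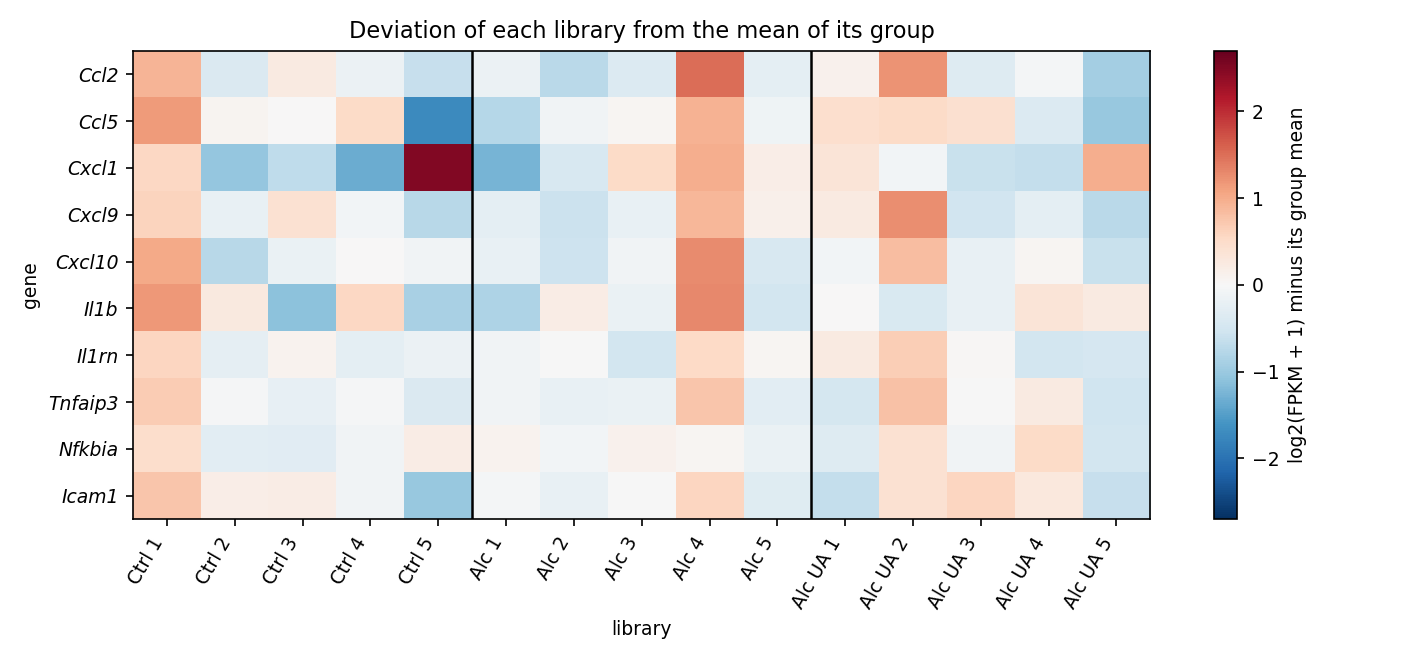
Deviation of log2(FPKM + 1) from the mean of the mouse's own group (colour) for the 10 genes (y axis) in the 15 libraries (x axis). The columns of Ctrl 1 and Alc 4 are above their group mean for all 10 genes, and Cxcl1 in Ctrl 5 goes the other way from most genes of that mouse.

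As a description of how the genes varied together, the deviations of each mouse from its group mean were correlated over the 15 libraries, which share the 3 mice named above. Over the 45 pairs of the 10 genes, Pearson r had a median of 0.56 and ran from -0.42 to 0.94. Ccl2 and Cxcl9 were the most alike, at r = 0.94 and Spearman rho = 0.88, and at r = 0.90 without Alc 4 and Alc UA 2. Ccl2 and Cxcl10 followed at r = 0.92 (0.82 without 2 mice). Cxcl1 had a median r of 0.04 to the other 9 genes and none above 0.26, values that rest in part on Ctrl 5. Without Ctrl 5 and Ctrl 4 its r was 0.55 with Il1b (0.04 with all mice), 0.44 with Cxcl10 (0.26) and 0.27 with Cxcl9 (-0.05). Among all tested genes, the closest to Cxcl9 was Gbp2, an interferon-induced GTPase (r = 0.94), and Ccl2 itself and Bzw1 were the next. The closest to Ccl5 were Agpat5, Hmgn2 and Serpina3f, each at r = 0.94. Cxcl1 was closest to Calr (0.86), Hsd3b3 (0.85) and Cited2 (0.84), and Cxcl10 to Ccl2, Ccser2 (0.91) and Ccrl2 (0.90). For Ccl2 the closest were Agfg1 (0.94), Cxcl9 and Tgif1 (0.93). Il1b was closest to Kit (0.88), Tomm7 and Ndufb11 (both 0.87), and Il1rn to Pcmtd1 and Endod1 (both 0.91) and Lin7c (0.89). Tnfaip3 was closest to Ccser2 and Cstb (both 0.95) and Myl12a (0.94), Nfkbia to LOC115486524 and Krt8 (both 0.89) and Tom1 (0.85), and Icam1 to Macroh2a1 (0.95), Ppp1r12c and Pld3 (both 0.94).

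The other genes of these pathways were followed as 8 lists. Their counts are to be read against all tested genes, of which 10.6% were higher and 22.8% lower in Alc than in Ctrl. In either direction, every list but the adhesion genes stood at or below the 33.3% of all tested genes that passed. Of 30 other chemokine genes, 28 were in the table and 9 were tested; 1 was higher and 2 were lower in Alc than in Ctrl, with a median difference of -0.47. Ccl9 was higher (0.55, limma adjusted p = 0.019; 0.051 without Ctrl 2), and Ccl27a and Ccl25 were lower (-0.57 and -0.49), the last 2 calls ending on leaving out mouse 1, 2 or 4 of Ctrl or mouse 1, 4 or 5 of Alc (adjusted p up to 0.081 and 0.11). The count of lower genes ran from 0 to 5 over the fits that left out 1 mouse, and was 0 with size factors. Cxcl2, the neutrophil attractant closest in kind to Cxcl1, had a difference of -1.15 (limma adjusted p = 0.053), and it passed without Alc 4, Ctrl 3 or Ctrl 5 (lowest adjusted p = 0.017).

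Of 23 chemokine receptor genes, 7 were tested and 2 were lower in Alc, with a median of -0.41. Ackr2, a scavenger that removes inflammatory CC chemokines such as Ccl2 and Ccl5, fell from 2.33 ± 0.584 FPKM in Ctrl to 0.778 ± 0.189 in Alc (difference -0.89 ± 0.15, limma adjusted p = 5.9e-04). Ackr4, a scavenger of homeostatic chemokines, differed by -0.46 (limma adjusted p = 0.031), a call that ended, with adjusted p up to 0.077, without mouse 1, 2 or 4 of Ctrl or mouse 2, 3 or 5 of Alc. Ackr2 held in each fit that left out 1 mouse. Both genes reached 1 FPKM mainly in Ctrl libraries, so their entry into the test, and the count of 2 lower, are not independent of their being higher there.

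In the NF-kB pathway itself, 18 of 19 subunits, IkB proteins and kinases were tested, of which 1 was higher and 4 were lower in Alc (median -0.23). With quantile normalization and size factors the median was -0.09 and -0.11. Tab2, an adaptor of the kinase TAK1, fell by 0.65 ± 0.10 (19.8 to 12.2 FPKM, limma adjusted p = 3.5e-04). Bcl3, an atypical IkB protein of the nucleus, fell by 0.93 ± 0.26 (13.3 to 6.52 FPKM, adjusted p = 0.014). Rela, the main activating subunit, had a difference of -0.32 (limma adjusted p = 0.031), a call lost on leaving out mouse 1, 3 or 4 of Ctrl or mouse 2 or 5 of Alc. Ikbke, a kinase related to the IkB kinases, was the higher gene (0.65, adjusted p = 0.032), lost on leaving out mouse 2, 4 or 5 of Ctrl or mouse 1, 3 or 4 of Alc.

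Of 23 feedback and survival targets of NF-kB, 16 were tested and 4 were lower in Alc, with 0 higher (median -0.20). The median became -0.06 with quantile normalization and -0.08 with size factors, where 1 gene was also higher. Tnip2, a partner of the Tnfaip3 protein, fell by 0.53 ± 0.14 (5.51 to 3.42 FPKM, limma adjusted p = 0.010) and held in each fit that left out 1 mouse. The count of lower genes ran from 1 to 6 over those fits. Of 27 genes of TNF and Toll-like receptor signalling, 20 were tested, with 1 higher and 1 lower. The lower gene, Ly96 (-0.65, limma adjusted p = 0.04998), lost its call in 11 of the 15 fits that left out 1 mouse. With quantile normalization or size factors, 0 genes of this list were lower. Tlr5, the flagellin receptor, rose by 0.69 ± 0.20 (2.60 to 4.78 FPKM, limma adjusted p = 0.016). The median of that list was -0.11 and turned to 0.01 and 0.03 with quantile normalization and size factors. Of 22 interferon gamma response genes, 19 were tested and 0 passed in Alc against Ctrl, with a median of -0.06 that turned to 0.03 and 0.08 under those scalings. Up to 3 genes of that list were lower when 1 mouse was left out, and 1 was lower without Ctrl 1 and Alc 4. Of 22 genes of the interleukin 1 family and the inflammasome, 11 were tested and 0 passed, with Il1r1, the signalling receptor, at 0.54 (limma adjusted p = 0.063). Il1r1 passed without Ctrl 1 or Ctrl 3 (lowest limma adjusted p = 0.028). With quantile normalization, with size factors, or without Ctrl 1 and Alc 4, 2 genes of this list were higher, and over the fits that left out 1 mouse up to 2 were higher and up to 3 lower.

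Leukocyte adhesion genes had the highest count of the 8 lists, 6 lower and 0 higher of 13 tested (median -0.42). Of all tested genes, 22.8% were lower. From 4 to 7 of the 13 were lower when 1 mouse was left out. Jam2, a junctional adhesion molecule of endothelium, fell by 1.31 ± 0.20 (6.56 to 2.02 FPKM, limma adjusted p = 3.5e-04). Pecam1, at endothelial cell contacts, fell by 1.25 ± 0.25 (13.1 to 4.83 FPKM, adjusted p = 0.0021). Vwf, the clotting factor stored in endothelium, fell by 0.94 ± 0.16, and Selp, the selectin stored with it, by 0.51 ± 0.12 (limma adjusted p = 7.7e-04 and 0.0044). These 4 genes held in each fit that left out 1 mouse, and they stand beside the lower sinusoidal endothelial markers given above. Like Cxcl2, Ackr2 and Ackr4, Vwf reached 1 FPKM mainly in Ctrl libraries. That these genes entered the test is therefore not independent of their being higher there. In the comparison of Alc UA with Alc, 0 genes of the 8 lists passed. In Alc UA against Ctrl, 0 of the tested chemokines were higher and 3 lower, 2 receptors and 2 interleukin 1 family genes were lower, 1 NF-kB pathway gene was higher and 4 lower, and 4 feedback targets were lower. The TNF and Toll-like receptor list had 2 higher and 2 lower there, the interferon gamma list 2 lower and the adhesion list 6 lower. Of all tested genes, 10.5% were higher and 32.1% lower in that comparison. Some of these balances turned with the scaling, and that of all tested genes did too. It went from 1152 higher and 3521 lower to 2420 and 2430 with quantile normalization and 2738 and 2022 with size factors. The TNF and Toll-like receptor list had 5 higher and 1 lower with quantile normalization and 6 and 1 with size factors. With size factors the NF-kB pathway list had 4 higher and 2 lower, the interferon gamma list 2 and 1, the interleukin 1 family 2 and 1, and the other chemokines 1 and 1. The adhesion list had 5 lower, with 1 higher, under both scalings.

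**Figure D5:**
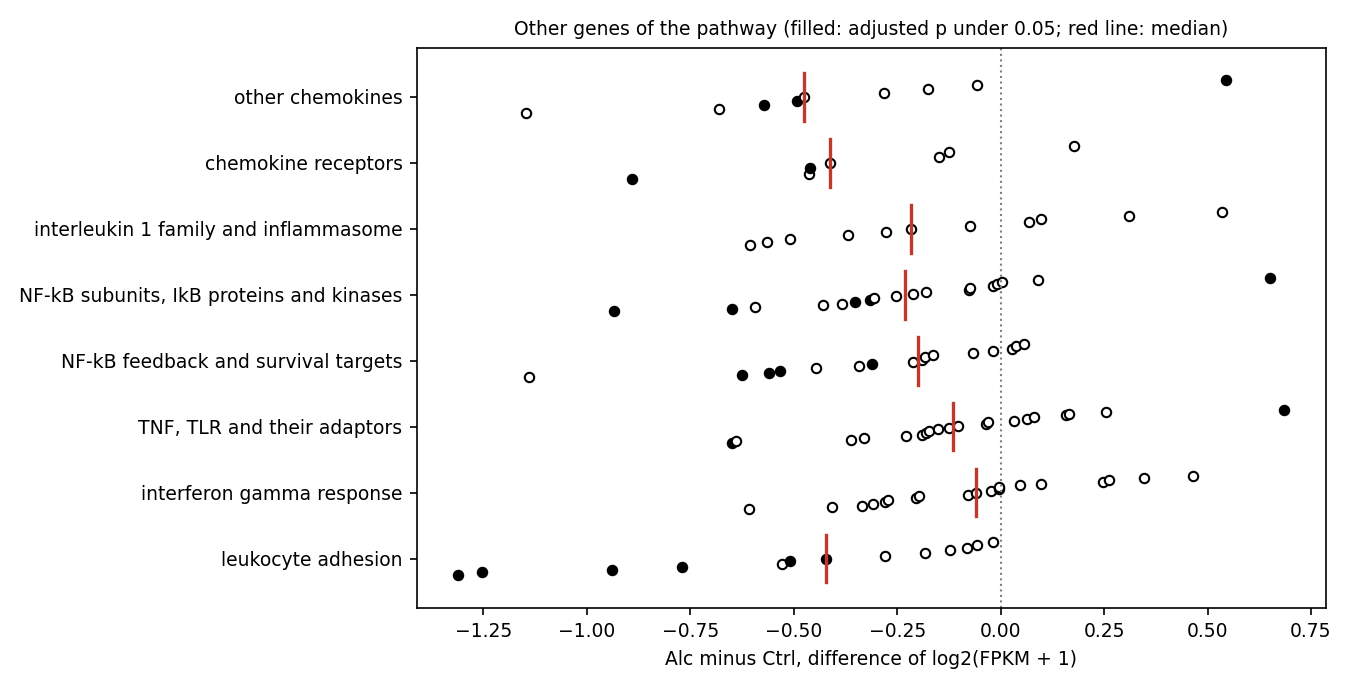
Difference of log2(FPKM + 1) between Alc and Ctrl (x axis) for each tested gene of the 8 pathway lists (y axis), filled where the limma adjusted p is under 0.05, with the list median as a red line. The adhesion list has 6 filled points, all below 0, and the interferon gamma and interleukin 1 lists have none.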

How the data were processed

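Liver total RNA of 15 mice was sequenced, 5 per group, and columns were assigned to mice by matching their letter and number to the sample titles. The authors deposited 1 table of FPKM values to 2 decimals. Per the submitters' processing notes, which give no roles, the tools were RSEM 1.2.8, StringTie, DESeq, Bowtie2 2.2.5 and HISAT2 2.1.0. Build, annotation and strand use were not given in the sources used here, so coordinates come from the RefSeq promoter table (GRCm38.p6) alone. The low values, in steps of 0.01, were too coarse to give relative depth, which is unknown.

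Values were tested as log2(FPKM + 1) with limma 3.58.1 (R 4.3.3): a linear model over the 3 groups, genes reaching 1 FPKM in 5 or more libraries, a variance prior with mean trend, and Benjamini-Hochberg adjustment over 10959 genes. All 10 genes passed that filter, so the permutation test planned for genes below it was not needed. The Il1rn to Il1b ratio was tested by exact permutation over 252 assignments (scipy 1.17.1). The fit was tested on simulated data. The lists, and the 10 genes, were chosen with earlier results of these data known. From each other pathway list, the up to 4 genes of smallest p in Alc against Ctrl and the up to 2 in Alc UA against Alc were eligible to be named. Likeness took the 3 genes of highest r per gene, without predicted models. Alternatives were other pseudocounts (0.1 and 0.5), no filter and a filter on the mean, quantile normalization, size factors, 2 groups alone, library weights, a replicate block and leaving out each mouse. The 2 settings without Ctrl 1 and either Ctrl 5 or Alc 4 were added after seeing the data. Protein sequences were not used here.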

Additional observations from a re-analysis of the deposited data

Results flagged for a closer look

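In each of the 30 combinations of gene and group, the gap from the highest or lowest mouse to its neighbour was set against the whole range of the 5 mice and marked where it exceeded 0.71 of that range. Of the 30 combinations, 7 were marked. Chance marks about 1 in 20 such groups only where the values are independent and normally distributed. That rate does not carry over here, because untransformed FPKM was used and the combinations reuse the same mice. The genes also varied together within groups, with a median r of 0.56 over their pairs. Whether 7 is more than chance would give was therefore not tested. Alc 4 accounted for 4 of them: Ccl2 at 5.00 FPKM (the next mouse of its group had 0.89), Cxcl10 at 9.63 (next 3.07), Tnfaip3 at 2.61 (next 1.0) and Icam1 at 9.85 (next 6.20). Ctrl 1 accounted for 2, Cxcl10 at 16.98 (next 7.92) and Tnfaip3 at 2.84 (next 1.36). Ctrl 5 accounted for the last, Cxcl1 at 32.97 FPKM (next 7.84). All 7 were mice far above the others of their group.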

How the results depend on the processing

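Over the settings run for the single genes, 692 values kept their direction and side of the threshold, 44 lost a call, 13 gained one and 31 changed sign. Of the 10 genes, 4 passed in Alc against Ctrl. The number was 2 with no filter, 7 with library weights and 1 to 5 when 1 mouse was left out. Calls over all genes moved with these settings. They were 1092 higher and 2738 lower of 18287 with no filter, and 1821 and 4049 of 10959 with library weights. Without 1 mouse they ran from 846 to 1231 higher and from 1725 to 3382 lower. In Alc UA against Ctrl, 3 of the 10 genes passed, and 2 to 5 when 1 mouse was left out. All tested genes there gave 876 to 1275 higher and 2793 to 4210 lower without 1 mouse. The Il1rn to Il1b difference between Alc and Ctrl ran from 1.35 to 1.85 without 1 mouse. The correlations of same-numbered deviations ran from -0.30 to 0.24 in Alc and Ctrl. They ran from -0.11 to 0.18 in Alc UA and Alc and from -0.22 to 0.29 in Alc UA and Ctrl. The mice were therefore treated as unpaired, though such correlations cannot exclude a pairing. With the numbers as a replicate block, 3, 0 and 3 of the 10 genes passed in the 3 comparisons. All tested genes gave 1060 higher and 2494 lower, 0 and 0, and 1051 and 3483 in that fit. Nfkbia in Alc against Ctrl had a limma adjusted p of 0.056 there. Sign changes were confined to differences that had not passed, and their cause was not tested. In Alc against Ctrl, Ccl2 became 0.0910 with quantile normalization, 0.0568 with size factors and 0.0608 without Ctrl 1 and Ctrl 5, and ran from -0.42 to 0.19 without 1 mouse, Cxcl9 from -0.13 to 0.24 and Tnfaip3 from -0.35 to 0.0079. In Alc UA against Alc, Cxcl10 became 0.10 with library weights and 0.16 without Ctrl 1 and Alc 4, and ran from -0.37 to 0.16. The ranges there were -0.0434 to 0.64 for Ccl2, -0.0594 to 0.50 for Cxcl1, -0.0234 to 0.28 for Il1rn, -0.0077 to 0.24 for Nfkbia and -0.10 to 0.21 for Icam1. In Alc UA against Ctrl, Il1b became 0.0595 with quantile normalization, 0.10 with size factors and 0.19 without Ctrl 1 and Alc 4, and ran from -0.38 to 0.19, Ccl2 from -0.0820 to 0.45 and Tnfaip3 from -0.0115 to 0.36. With library weights, Cxcl1 (1.35), Il1b (-1.04) and Icam1 (-0.68) passed in Alc against Ctrl, and Cxcl10 lost its call in Alc UA against Ctrl (-0.72, limma adjusted p = 0.074). The unknown read depth leaves the precision of single low values, such as those of Ccl2 and Tnfaip3, unknown.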

Other observations

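Markers of Kupffer cells, the resident macrophages that make several of the chemokines above, passed in Alc against Ctrl for 0 of 12 genes. Of all tested genes, 10.6% were higher there. The 12 differences ran from 0.04 to 0.69, with a median of 0.35 beside -0.12 for all genes. In Alc UA, 1 of 12, Cd5l, was higher than in Ctrl (1.22, limma adjusted p = 0.044), where 10.5% of all tested genes were higher. With quantile normalization or size factors, 1 of the 12 was higher in Alc and 5 in Alc UA, each against Ctrl. Of 10959 tested genes, 2049 and 2420 were higher with the first scaling, and 2206 and 2738 with the second. Kupffer marker sums ran from 64.9 (Ctrl 5) to 447 FPKM (Ctrl 1) in Ctrl, from 181 to 305 in Alc and from 210 to 668 in Alc UA. Monocyte and dendritic cell markers summed to between 8.35 and 41.6 FPKM in Ctrl, 9.22 and 23.3 in Alc, and 11 and 22.5 in Alc UA.

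Some genes of the pathway lists passed in Alc UA against Ctrl and not in Alc against Ctrl. Tnfrsf1b, a receptor for TNF, was higher (0.78, limma adjusted p = 0.0037), and Sigirr, an inhibitory receptor of the interleukin 1 family (-0.63, adjusted p = 0.0086), and Gbp4, an interferon-induced GTPase (-0.92, adjusted p = 0.0053), were lower. In Alc against Ctrl the same genes were at 0.25 (limma adjusted p = 0.30), -0.28 (0.22) and -0.61 (0.051), so Gbp4 lay just past the threshold there. Gbp4 passed in that comparison without Alc 3, Alc 4, Alc UA 4 or Ctrl 5 (lowest limma adjusted p = 0.021). None of the 3 passed in Alc UA against Alc. Cd14, the co-receptor for bacterial lipopolysaccharide, had a difference of 0.73 between Alc UA and Alc (limma adjusted p = 0.70).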
